A study of Rattus norvegicus with 46 samples.

Results

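Fabp4, Fabp5, Pparg, Plin2, Lpl, Cd36 and Itgax were followed as a group of 7 genes of lipid handling in macrophages, chosen by name among the 30045 genes measured in rat lung and blood. All 7 had a row in each of the 4 count tables, 1 per tissue and time. The animals were male Fischer 344 rats, an inbred strain, called aged in the title of the series. One set inhaled crystalline silica (Min-U-Sil 5, a fine quartz dust) in a whole-body chamber, with 15 mg/m3 in the air during 6 hours daily over 5 days, and the other inhaled filtered air. Lung and whole blood were collected 1 day or 6 months after exposure. The groups were silica and air lungs of 1 day (6 samples each), silica lungs of 6 months (6) and air lungs of 6 months (4), and 6 silica and 6 air blood samples at each time. Whole tissue was sequenced, so fewer cells of a type and less RNA per cell cannot be told apart.

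PPARγ, the product of Pparg, is a nuclear receptor that binds fatty acids and switches on genes for their uptake and storage, paired with a retinoid X receptor. In the mouse lung it is required for alveolar macrophages, which clear surfactant lipid, to mature. Fabp4 and Fabp5 encode carriers of fatty acids in the cytoplasm, Plin2 a coat protein of lipid droplets, Lpl a lipase that frees fatty acids from lipoproteins, and Cd36 a receptor that takes up fatty acids and oxidised lipoproteins. These 5 are known targets of PPARγ, mainly from work in mouse and human cells. Itgax encodes CD11c, an integrin α chain that pairs with the β2 chain and marks dendritic cells and, in mouse, alveolar macrophages. Endothelium, adipocytes and alveolar type 2 cells also use several of these genes.

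Each library held between 10.6 M and 24.4 M estimated counts in total. In lung, the counts of 5 pairs of libraries were close to what sampling alone would give (7.70% to 9.71% of genes at p under 0.05 in a chi-square test, against 21.2% to 73.9% in the other 46 pairs), and each was counted as 1 library. This left 6 silica and 4 air lungs at 1 day, and 5 silica and 2 air lungs at 6 months. Libraries are named by the numbers in their labels, and a merged pair by both (30-31). Both 6-month air lungs stood apart from the rest. Their 12 markers of natural killer (NK) cells and large granular lymphocytes (LGL) summed to 3227 and 3547 CPM (counts scaled to library size), against 240 to 1149 CPM in the other 15 lung libraries. Sftpc, a surfactant gene that marks lung epithelium, lay between 4802 and 18671 CPM in lung and at 0.212 CPM or less in blood.

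One day after exposure, 4 of the 7 genes were higher in silica lungs (Itgax, Fabp5, Cd36 and Lpl), 1 was lower (Pparg), and 2 did not pass the test (Plin2 and Fabp4). Tests were edgeR's quasi-likelihood test with Benjamini-Hochberg adjustment over 15724 genes and a threshold of 0.05. Of all genes tested, 7.61% were higher and 4.07% lower. The median log2 fold change was 0.20 over the 7 genes and 0.00 over all genes. The changes in these genes were small, at most 1.72-fold.

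Pparg, the receptor, fell to 11.6 ± 1.24 CPM in silica lungs (SD, n = 6), against 14.8 ± 1.39 CPM in air lungs (n = 4). The silica libraries read 11.2, 11.4, 10.8, 13.2, 12.9 and 9.97 CPM, and the air libraries 13.02, 14.3, 15.5 and 16.2 CPM. The groups met at their edges, where silica library 13 lay above air library 02-07. The log2 fold change was -0.35 ± 0.09 (SE), with an adjusted p of 0.0291.

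Fabp5 and Fabp4, the carriers, parted at this time. Fabp5 stood at 193, 234, 205, 212, 196 and 187 CPM in silica lungs and at 132, 135, 143 and 120 CPM in air lungs, so every silica library lay above every air library. Its log2 fold change was 0.63 ± 0.07, with an adjusted p of 4.41e-05. Fabp4 averaged 11.02 ± 1.13 CPM in silica lungs and 11.4 ± 1.23 CPM in air lungs, with overlapping groups and a log2 fold change of -0.05 ± 0.10 (adjusted p = 0.814). The droplet coat gene Plin2 averaged 210 ± 15.5 CPM in silica lungs and 192 ± 7.30 CPM in air lungs, and its log2 fold change of 0.13 ± 0.05 did not pass (adjusted p = 0.154).

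Lpl and Cd36, which act on lipid outside the cell, were both slightly higher. Lpl averaged 656 ± 17.0 CPM in silica lungs (629 to 675) and 571 ± 40.2 CPM in air lungs (523 to 612), a log2 fold change of 0.20 ± 0.05 with an adjusted p of 0.0154. Cd36 averaged 535 ± 44.3 CPM in silica lungs (493.4 to 619.7) and 455 ± 12.4 CPM in air lungs (443 to 470), a log2 fold change of 0.23 ± 0.06 with an adjusted p of 0.0189. Neither gene's groups overlapped. With Fabp5 this made 3 of the 7 genes without overlap, where 11.4% of all genes tested had none.

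Itgax had 117, 70.1, 102, 87.4, 80.9 and 71.3 CPM in silica lungs, against 49.99, 72.3, 44.5 and 38.8 CPM in air lungs. The groups overlapped through air library 04-08 alone. The log2 fold change was 0.78 ± 0.21, just past the threshold (adjusted p = 0.0480). The NK and LGL markers summed to 240 to 766 CPM in silica lungs and 380 to 861 CPM in air lungs, and the library highest in Itgax in each group, silica 10 and air 04-08, was also the highest in these markers. The 13 neutrophil markers summed to 1155 to 1575 CPM in silica lungs and 343 to 420 CPM in air lungs, and the 20 alveolar macrophage markers to 2030 to 2190 CPM in silica lungs and 1898 to 2001 CPM in air lungs. The 10 alveolar type 2 cell markers summed to 28469 to 32209 CPM in silica lungs and 22722 to 25273 CPM in air lungs, and the 15 endothelial markers to 6179 to 6805 CPM in silica lungs and 6951 to 8322 CPM in air lungs. The 12 dendritic cell markers summed to 241 to 268 CPM in silica lungs and 179 to 228 CPM in air lungs, without overlap, and 4 were called higher and none lower. The 10 adipocyte markers summed to 89.6 to 113 CPM in silica lungs and 105 to 116 CPM in air lungs, with 1 of 3 tested lower. The part of these cells in the results of the 7 genes at 1 day was not tested.

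Of these 5 calls, Fabp5 alone passed with each of the 10 libraries left out in turn. Without air 02-07, adjusted p was 0.0725 for Lpl and 0.0533 for Cd36, and without air 06 it was 0.0625 for Cd36. Pparg was lost without air 05 (0.0823), air 06 (0.108), silica 11 (0.0521) or silica 12 (0.0542). Itgax passed only without air 04-08 or silica 11, and was at 0.0517 to 0.137 without any of the other 8. All 5 were lost when the lungs of both times shared 1 estimate of the spread (Fabp5 0.172, Pparg 0.232, Lpl 0.447, Cd36 0.294, Itgax 0.134), with nearly the same log2 fold changes.

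**Figure D1:**
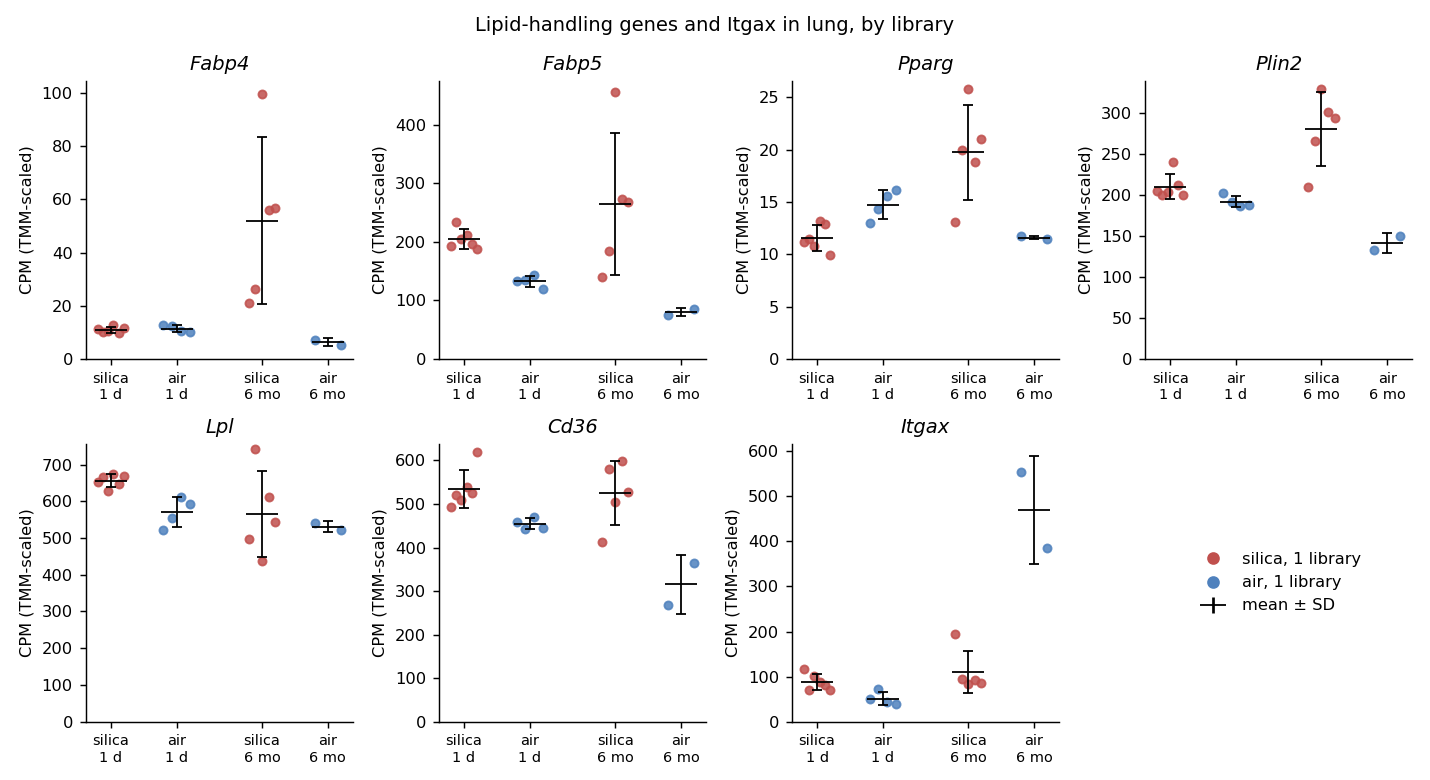
CPM of each gene in lung, 1 point per library, silica left of air at each time, with the mean ± SD. Fabp4 ranged from 20.98 to 99.7 CPM in silica lungs of 6 months, against 5.37 and 7.33 CPM in air lungs, while Itgax was 385 and 554 CPM in those air lungs, above every silica lung.

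At 6 months after exposure, 4 of the 7 genes were higher in silica lungs (Fabp4, Fabp5, Plin2 and Cd36), 1 was lower (Itgax), and 2 did not pass (Pparg and Lpl). Of the 16265 genes tested, 9.52% were higher and 10.1% lower. The median log2 fold change was 0.77 over the 7 genes and 0.00 over all genes. Only Lpl had overlapping groups; over all genes tested, 45.0% had none, so the 6 of 7 without overlap are to be read against a high share.

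Fabp4 showed the largest difference of the 7. It had 20.98, 26.4, 99.7, 56.0 and 56.7 CPM in silica lungs 30-31, 32, 33, 34 and 35, against 7.33 and 5.37 CPM in air lungs 19-24 and 20-25. Every silica library was at least 3.303 times the air mean, and the highest was 15.7 times that mean. The log2 fold change was 3.03 ± 0.68, with an adjusted p of 0.0207. Of all genes tested, 0.633% had a larger rise.

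Fabp5 had 141, 185, 455, 273 and 268 CPM in the silica lungs in the same order, against 75.6 and 84.9 CPM in the air lungs. The order of the silica libraries was close to that of Fabp4, with 33 highest and 30-31 lowest. The log2 fold change was 1.72 ± 0.44, with an adjusted p of 0.0328. Plin2, the droplet coat gene, had 210, 266, 329, 301 and 294 CPM in silica lungs and 133 and 150 CPM in air lungs, again with 33 highest and 30-31 lowest. Its log2 fold change was 0.98 ± 0.19, with an adjusted p of 0.0129.

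Cd36, the uptake receptor, had 413, 580, 505, 599 and 527 CPM in silica lungs and 268 and 364 CPM in air lungs. Here 34 was the highest silica library and 30-31 the lowest. The log2 fold change was 0.73 ± 0.19, with an adjusted p of 0.0356. The receptor gene Pparg had 13.1, 20.03, 25.8, 18.8 and 21.1 CPM in silica lungs and 11.7 and 11.5 CPM in air lungs. All silica libraries lay above both air libraries, but the log2 fold change of 0.77 ± 0.25 did not pass (adjusted p = 0.0651). It passed without silica 30-31 (0.0120) and with DESeq2 (0.0207).

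Lpl, the lipase, had 499, 741, 436, 611 and 544 CPM in silica lungs and 541 and 521 CPM in air lungs. The silica libraries lay on both sides of the air libraries, and the log2 fold change of 0.09 ± 0.20 did not pass (adjusted p = 0.791). Silica 33, the highest in Fabp4, Fabp5, Pparg and Plin2, was the lowest in Lpl.

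Itgax fell to 110 ± 47.4 CPM in silica lungs (n = 5), against 469 ± 120 CPM in air lungs (n = 2). The silica libraries had 195, 93.7, 84.2, 91.5 and 86.7 CPM, and the air libraries 554 and 385 CPM. Silica 30-31, the lowest of its group in Fabp4, Fabp5, Pparg, Plin2 and Cd36, was the highest in Itgax. The log2 fold change was -2.09 ± 0.33, with an adjusted p of 0.0088.

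Markers of several cell types moved with these values, and their part in the results was not tested. The NK and LGL markers summed to 345 to 1149 CPM in silica lungs and 3227 to 3547 CPM in air lungs; silica 30-31, at 1149 CPM, was the highest silica library here as in Itgax. The 20 alveolar macrophage markers summed to 1762 to 2566 CPM in silica lungs and 1532 to 1650 CPM in air lungs, with 30-31 lowest and 33 highest among silica libraries. The 10 alveolar type 2 cell markers summed to 25423 to 55002 CPM in silica lungs and 13954 to 16909 CPM in air lungs, again with 30-31 lowest and 33 highest. The 15 endothelial markers summed to 4512 to 5704 CPM in silica lungs and 5340 to 5664 CPM in air lungs, with 33 the lowest. The 13 neutrophil markers summed to 1152 to 3224 CPM in silica lungs, with 33 the highest, and 182 to 235 CPM in air lungs. The 10 T cell markers summed to 245 to 502 CPM in silica lungs, with 30-31 the highest, and 794 to 992 CPM in air lungs, while 6 of them were called higher and 3 lower. The 12 dendritic cell markers summed to 269 to 356 CPM in silica lungs and 205 to 503 CPM in air lungs, with 8 called higher and none lower (median log2 fold change 1.18), the other way from Itgax. Of the tested monocyte and B cell markers, 5 of 10 and 3 of 6 were called higher and none lower. The 10 adipocyte markers summed to 101 to 124 CPM in silica lungs and 88.0 to 110 CPM in air lungs. Lipe, a lipase gene, and Cfd made up most of that sum, and Adipoq and Plin1 were near 0, at 0.655 and 0.137 CPM or less in all lung libraries. None of the 5 adipocyte markers tested passed at 6 months (median 1.09), though 2 were higher in the interaction with time described below and 3 rose in silica lungs between the times. None of these lists holds any of the 7 genes.

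With 2 air libraries, the calls at 6 months leaned on each of them. Without air 19-24, adjusted p was 0.162 for Fabp4, 0.246 for Fabp5, 0.154 for Plin2, 0.309 for Cd36 and 0.101 for Itgax, and 57 of all genes passed in place of 3190. Without air 20-25 it was 0.119 for Fabp4, 0.131 for Fabp5, 0.0631 for Plin2 and 0.0633 for Cd36, and 1063 genes passed. Fabp5 was also lost without silica 34 (0.0687) or 35 (0.0695), and Cd36 without silica 32 (0.0669), 34 (0.0778) or 35 (0.0798).

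Because the 6-month air lungs stood apart, the 6-month silica lungs were also set against the 1-day air lungs, a comparison added after the data were seen, in which exposure and time cannot be told apart. Fabp4 was then higher by a log2 fold change of 2.21 (adjusted p = 0.000385), Fabp5 by 1.02 (0.00469), Plin2 by 0.57 (0.000704) and Pparg by 0.45 (0.0314). Cd36 did not pass (0.24, adjusted p = 0.105). Itgax turned round: it was higher by 1.13 in the silica lungs (adjusted p = 0.00608).

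**Figure D2:**
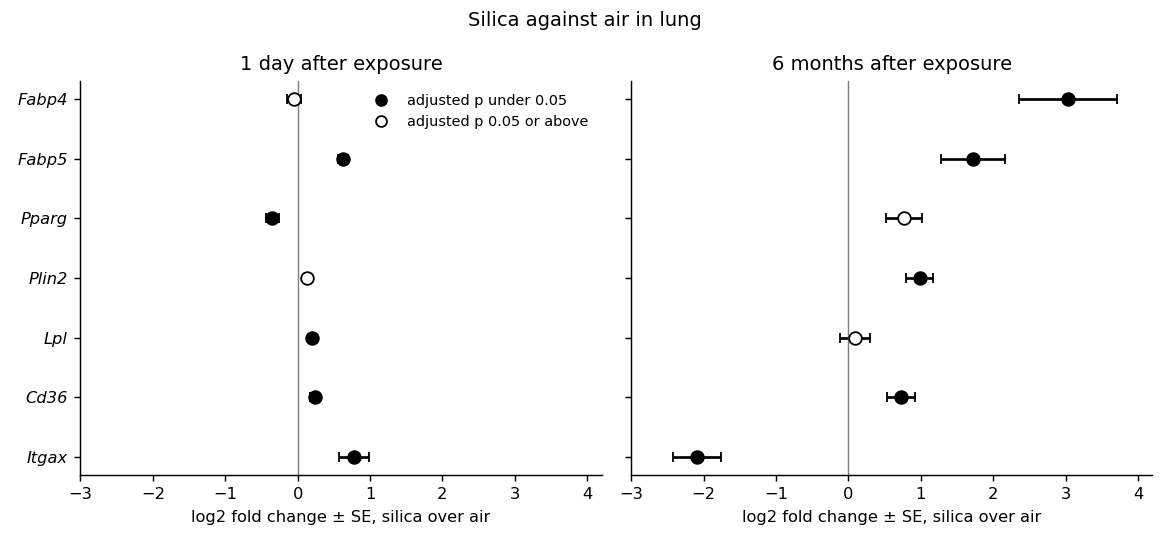
Log2 fold change ± SE of silica over air for each gene in lung at 1 day (left) and 6 months (right); filled points passed the adjusted p threshold of 0.05. Pparg lay at -0.35 at 1 day and 0.77 at 6 months, and Itgax at 0.78 at 1 day and -2.09 at 6 months.

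The promoters of the 7 genes were searched for letters that factors of macrophages and lipid handling are known to bind. RefSeq promoter windows (build GRCr8, 250 bases before to 50 after a gene's start) were found for 4 of the 7 genes, 6 windows in all. The letters searched, on both strands, were AGGTCA, the half-site that PPARγ and related receptors bind, AGGTCANAGGTCA, the direct repeat bound by PPARγ with a retinoid X receptor, GAGGAA, the core of sites of the macrophage factor PU.1, CACGTG, an E-box, and TGANTCA, the AP-1 site. The direct repeat contains the half-site. The windows shown belong to Plin2 and Cd36, called higher at 6 months, to Itgax, called lower, and to the receptor gene Pparg. Of the 2 windows each of Plin2 and Pparg, 1 is shown, and matched letters are in capitals.
Plin2, first start (chr5:106228969-106229268, minus strand): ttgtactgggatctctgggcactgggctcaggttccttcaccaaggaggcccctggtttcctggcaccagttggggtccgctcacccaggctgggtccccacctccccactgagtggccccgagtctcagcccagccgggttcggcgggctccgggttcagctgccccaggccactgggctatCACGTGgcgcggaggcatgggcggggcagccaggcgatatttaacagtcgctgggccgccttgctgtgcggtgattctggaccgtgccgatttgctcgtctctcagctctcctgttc
Cd36 (chr4:18246332-18246631, plus strand): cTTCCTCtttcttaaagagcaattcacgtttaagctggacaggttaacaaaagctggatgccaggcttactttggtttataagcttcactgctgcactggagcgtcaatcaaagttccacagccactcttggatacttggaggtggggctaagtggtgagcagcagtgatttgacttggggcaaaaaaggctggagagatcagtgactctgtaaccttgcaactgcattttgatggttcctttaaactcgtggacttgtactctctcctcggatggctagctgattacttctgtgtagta
Pparg, second start (chr4:150154522-150154821, plus strand): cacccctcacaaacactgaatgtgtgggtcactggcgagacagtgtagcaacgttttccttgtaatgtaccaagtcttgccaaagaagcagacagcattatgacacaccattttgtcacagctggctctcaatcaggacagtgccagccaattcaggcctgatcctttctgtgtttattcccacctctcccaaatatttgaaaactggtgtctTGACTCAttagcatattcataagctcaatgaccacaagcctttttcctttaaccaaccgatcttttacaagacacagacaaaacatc
Itgax (chr1:192149799-192150098, plus strand): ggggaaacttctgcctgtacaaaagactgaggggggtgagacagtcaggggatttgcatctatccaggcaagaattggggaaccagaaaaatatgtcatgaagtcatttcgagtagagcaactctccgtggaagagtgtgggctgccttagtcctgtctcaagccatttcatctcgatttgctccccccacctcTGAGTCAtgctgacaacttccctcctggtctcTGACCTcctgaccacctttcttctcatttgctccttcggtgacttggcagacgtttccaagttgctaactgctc

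The direct repeat was in none of the 6 windows and in 0.0538% of all 33469 promoter windows of the same length. The half-site was in the Itgax window alone, on the reverse strand, with its first base at -24 from the start, and in 16.2% of all windows. The AP-1 letters were in the windows of Itgax and of Pparg's second start, and in 7.33% of all windows. The PU.1 core was in the Cd36 window and that of Pparg's first start, and in 27.6% of all. The E-box was in the window of Plin2's first start and in 6.42% of all, and the window of its second start held none of these letters. A match describes the letters only.

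The silica effect differed between the times for 6 of the 7 genes, tested as an interaction over all lung libraries. It was larger at 6 months for 5 genes and more negative for 1, where 12.2% and 14.6% of all 16568 genes tested were called in those directions. The difference of log2 fold changes, 6 months minus 1 day, was 3.06 ± 0.57 for Fabp4 (adjusted p = 0.00161), 1.09 ± 0.23 for Pparg (0.00340), 1.07 ± 0.37 for Fabp5 (0.0419), 0.83 ± 0.16 for Plin2 (0.00183) and 0.47 ± 0.17 for Cd36 (0.0443). For Itgax it was -2.89 ± 0.40 (0.000268), and for Lpl, which did not pass, -0.14 ± 0.17 (0.606). These adjusted p, and those between times below, rest on 1 estimate of the spread shared by all lung libraries. The SD of Fabp4 in silica lungs was 1.13 CPM at 1 day and 31.4 CPM at 6 months. For silica against air at 6 months, the shared fit called 6501 genes in place of 3190. Pparg then passed, with an adjusted p of 0.00506 in place of 0.0651. Fabp5 and Cd36 were each lost when any of 13 of the 17 lung libraries was left out (adjusted p 0.0519 to 0.199 for Fabp5 and 0.0539 to 0.376 for Cd36), and both with no filter on low counts (0.0621 for Fabp5 and 0.0656 for Cd36).

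Both groups moved between the times. In all comparisons between the times, time also goes with the age of the animals and with the count table, and these cannot be told apart. From 1 day to 6 months the silica lungs rose in Fabp4 (log2 fold change 2.27 ± 0.30, adjusted p = 0.000737), Pparg (0.80 ± 0.13, 0.00233) and Plin2 (0.45 ± 0.09, 0.00738), 3 of the 7 genes, where 4.44% of all genes rose and 5.21% fell. Fabp5 (0.40, adjusted p = 0.194), Itgax (0.36, 0.306), Cd36 (0.01, 0.970) and Lpl (-0.18, 0.237) did not pass there. The air lungs rose in Itgax by 3.25 ± 0.32 (adjusted p = 4.22e-06), and fell in Plin2 (-0.38 ± 0.13, 0.0283) and Cd36 (-0.47 ± 0.14, 0.0122), where 22.5% of all genes rose and 19.1% fell. Without air 19-24 the fall was lost for Plin2 (0.263) and Cd36 (0.284), and without air 02-07 for Plin2 (0.0611). Fabp4 (-0.79, adjusted p = 0.182), Fabp5 (-0.67, 0.0911), Pparg (-0.29, 0.237) and Lpl (-0.04, 0.835) did not pass in the air lungs. These comparisons share libraries with those of silica against air.

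**Figure D3:**
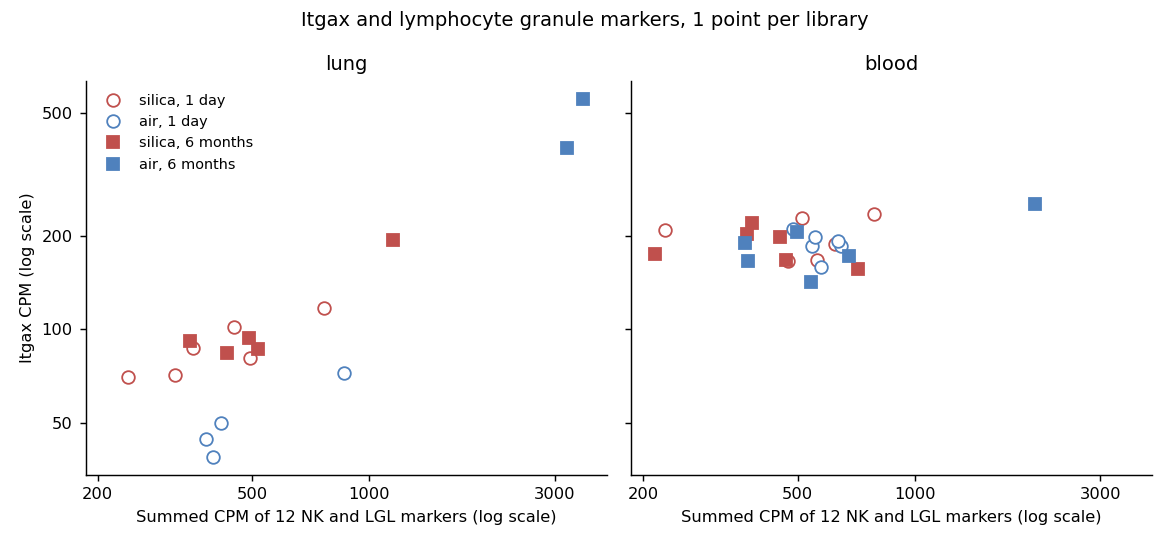
Itgax CPM against the summed CPM of 12 NK and LGL markers, both on log scales, 1 point per library, in lung (left) and blood (right). The 6-month air lungs are at the top right, with 385 and 554 CPM of Itgax and 3227 and 3547 CPM of markers, and the nearest lung library is silica 30-31, with 195 and 1149 CPM.

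The genes most like each of the 7 were those with the highest Pearson correlation of log2 CPM over the 17 lung libraries, among 14982 genes. The libraries span 4 groups that differ, so these values describe the pattern over groups. Itgax was most like Itgb2, which encodes the β2 chain that its protein pairs with (r = 0.98), and Dsc2, a desmosomal cadherin (0.98). Plin2 was most like Slc37a2, a sugar phosphate transporter (0.98), and Smpdl3a, a phosphodiesterase (0.98), and Fabp5 like the chemokine Cxcl17 (0.98) and the protease inhibitor Cstb (0.98). Fabp4 went with Col16a1, a collagen (0.97), and the complement component C2 (0.97), and Cd36 with Mat1a, which makes S-adenosylmethionine (0.95). Pparg had the serine protease complement factor D gene Cfd (0.91) and Tcf25 (0.90), and Lpl had Zfp874b (0.90) and Tcp11l1 (0.89).

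The genes around the 7 in their pathways were read from 7 lists. Rises and falls below are of silica against air at the same time, and the 6-month air lungs stood apart, as described above. Genes of these lists were not set against the 1-day air lungs 1 by 1, as the 7 were. Of all genes tested, 7.61% were higher and 4.07% lower at 1 day, and 9.52% higher and 10.1% lower at 6 months, and the counts below are to be read against these shares. In silica lungs of 1 day, the list of sterol efflux and lipid loading in macrophages had 5 genes higher and 3 lower of 14 tested (median log2 fold change 0.10). The scavenger receptor Msr1 rose by 0.84 ± 0.06 (122 CPM in silica and 68.5 CPM in air, adjusted p = 6.78e-07), and Npc2, which carries cholesterol out of lysosomes, by 0.69 ± 0.04 (998 CPM in silica and 621 CPM in air, 3.78e-07). Lgals3, encoding galectin-3, rose by 0.78 ± 0.06 (426 CPM in silica and 248 CPM in air, 3.17e-06). The cholesterol exporter gene Abca1 fell to 97.2 CPM in silica lungs, against 169 CPM in air lungs (log2 fold change -0.80 ± 0.06, adjusted p = 1.05e-06). Mylip, a ubiquitin ligase, fell too (-0.44 ± 0.06, 0.000445), as did Cyp27a1, a sterol hydroxylase (-0.28 ± 0.05, 0.00197).

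At 6 months the same list had 12 genes higher and none lower of 15 (median 0.85). Npc2 rose by 1.60 ± 0.38 (1550 CPM in silica and 511 CPM in air, adjusted p = 0.0258), Lgals3 by 1.51 ± 0.39 (662 CPM in silica and 233 CPM in air, 0.0320) and Trem2, a lipid-sensing receptor, by 1.36 ± 0.39 (77.2 CPM in silica and 30.1 CPM in air, 0.0451). Abca1, lower at 1 day, was higher at 6 months (143 CPM in silica and 79.5 CPM in air, log2 fold change 0.85, adjusted p = 0.0263). Its level in the 6-month silica lungs was below the 169 CPM of the 1-day air lungs. CPM are scaled within each time, and this difference was not tested.

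Among lipid droplet and triglyceride genes, 3 were higher and 2 lower of 19 at 1 day (median 0.08), and 6 higher and none lower at 6 months (median 0.47). From 1 day to 6 months, 7 of these 19 fell and none rose in air lungs (median -0.29). Of all genes, 22.5% rose and 19.1% fell there. In silica lungs 2 of the list rose and 1 fell (median -0.002), where 4.44% of all genes rose and 5.21% fell. Dgat2, which makes triglyceride, was higher in silica than in air lungs at both times. At 1 day the difference was 0.59 ± 0.11 (64.5 CPM in silica and 42.8 CPM in air, adjusted p = 0.00691). At 6 months it was 1.40 ± 0.21 (63.0 CPM in silica and 23.8 CPM in air, 0.00741). The silica CPM of Dgat2 was close to that at 1 day, though CPM are scaled within each time. Hilpda, an inhibitor of droplet lipolysis, rose by 0.37 ± 0.09 at 1 day (0.0163) and by 1.23 ± 0.26 at 6 months (0.0186). Soat1, which esterifies cholesterol, rose at 1 day (0.38 ± 0.05, 0.000198), and the droplet gene Cidea at 6 months (1.22 ± 0.28, 0.0234). At 1 day the lipase inhibitor gene G0s2 (-0.36 ± 0.10, 0.0455) and the monoglyceride lipase gene Mgll (-0.17 ± 0.04, 0.0191) fell.

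In the list of lipoprotein lipase control and lipoprotein uptake, 2 were higher and 2 lower of 12 at 1 day (median 0.12), and 4 higher and 1 lower at 6 months (median 0.28). Apoe, a lipoprotein component made by macrophages, fell at 1 day to 411 CPM in silica lungs, against 593 CPM in air lungs (-0.53 ± 0.06, adjusted p = 5.78e-05). At 6 months it was higher, with 826 CPM in silica lungs and 346 CPM in air lungs (1.25 ± 0.34, 0.0386). The lysosomal lipase gene Lipa rose at 1 day (0.30 ± 0.05, 0.000803), and Vldlr fell (-0.23 ± 0.06, 0.0210). At 6 months, with Lpl itself not passing, its inhibitor gene Angptl4 rose by 1.47 ± 0.31 (19.2 CPM in silica and 6.92 CPM in air, 0.0175). Gpihbp1, which anchors the lipase on capillaries, rose by 1.1 ± 0.27 (40.8 CPM in silica and 19.1 CPM in air, 0.0296), and Lmf2 fell (-0.84 ± 0.14, 0.0088).

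Of 16 genes for PPAR receptors, partners and coregulators, 1 was lower and none higher at 1 day (the retinoid X receptor gene Rxrb, -0.24 ± 0.05, adjusted p = 0.00617; list median -0.03). At 6 months 3 were higher and 1 lower (median -0.02). Cebpa, a transcription factor that acts with PPARγ, rose by 1.1 ± 0.21 (0.0133), the liver X receptor gene Nr1h3 by 0.81 ± 0.19 (0.0242), and Cebpb by 0.79 ± 0.15 (0.0121). Nr1h3 is also 1 of the 12 genes counted above. Fatty acid uptake and activation genes numbered 2 higher and none lower of 13 at 1 day (Acsl4, which activates fatty acids, 0.37 ± 0.06, 0.000759, and Dbi, which binds acyl-CoA, 0.34 ± 0.05, 0.00118; median 0.07). At 6 months the receptor gene Scarb1 was the 1 called (0.43 ± 0.12, 0.0434; median 0.31), no larger a share than that of all genes.

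Fatty acid oxidation genes had 4 higher and none lower of 18 at 1 day (median 0.12), among them Ucp2 (0.32 ± 0.06, 0.00345), the trifunctional protein gene Hadhb (0.24 ± 0.05, 0.00362) and the carnitine carrier gene Slc25a20 (0.17 ± 0.05, 0.0485). At 6 months none was higher and Ucp2, a mitochondrial carrier also used by lymphoid cells, was lower (-0.67 ± 0.14, 0.0185, list median 0.22). Ucp2 averaged 439 CPM in silica and 351 CPM in air lungs at 1 day, and 488 CPM in silica and 777 CPM in air lungs at 6 months. Among 8 partners of Itgax, 2 were higher and 1 lower at 1 day, led by Itgam, another α chain (0.79 ± 0.16, 0.0114), with the integrin activator gene Fermt3 (0.31 ± 0.09, 0.0433) and the lower ligand gene Icam2 (-0.25 ± 0.05, 0.00521; median 0.19). At 6 months 5 were lower and 1 higher (median -0.58). The α chain gene Itgad fell by 2.49 on the log2 scale (0.0122), Itgb2 by 1.18 (420 CPM in silica and 953 CPM in air, 0.00682) and Itgal by 1.00 (222 CPM in silica and 445 CPM in air, 0.0470), and the ligand gene Icam1 rose by 0.62 (0.0150). At 6 months the NK and LGL marker sums given above were lower in silica lungs too, unlike Icam1. At 1 day these sums overlapped between the groups (240 to 766 CPM in silica lungs and 380 to 861 CPM in air lungs). Their part in this list was not tested.

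**Figure D4:**
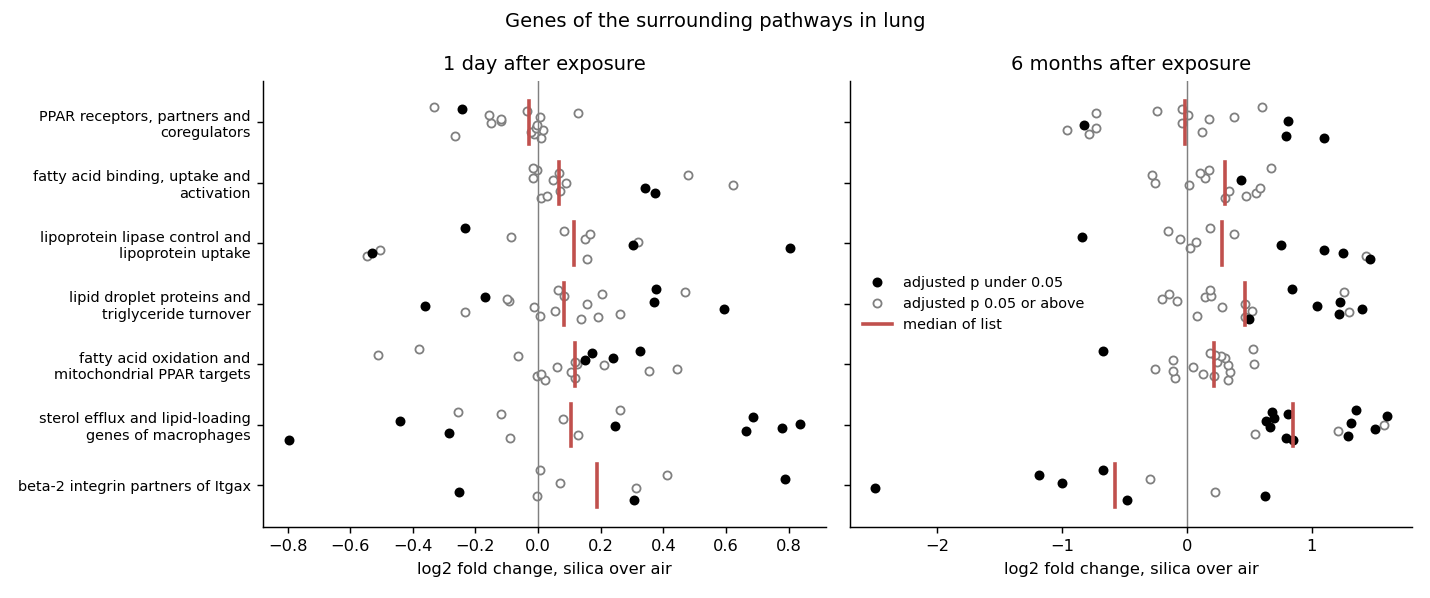
Log2 fold change of silica over air in lung for each tested gene of 7 pathway lists at 1 day (left) and 6 months (right), filled where adjusted p was under 0.05, with the median of each list as a red line. Medians lie between -0.03 and 0.19 at 1 day, and at 6 months the sterol list lies at 0.85 and the β2 integrin list at -0.58.

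In blood none of the 7 genes passed at either time, and none of all genes did (0% of 11876 genes at 1 day and 0% of 11615 at 6 months by edgeR). At an unadjusted p under 0.05 there were 430 genes at 1 day and 720 at 6 months, and DESeq2 called 7 genes at 6 months. The interaction of silica and time called 0% of 12264 genes. The groups of all 7 genes overlapped at both times, where 0.135% of genes tested at 1 day and 0.456% at 6 months had no overlap. None of the genes of the 7 pathway lists was called. Fabp4 was too low to be tested for silica against air. It had 0.0684 to 1.02 CPM in silica blood and 0.0697 to 1.19 CPM in air blood over both times. Without TMM, 3 counts correspond to 0.171 to 0.282 CPM. With TMM, the 3 counts of silica 31 of 6 months read 0.403 CPM.

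Plin2 came nearest at 1 day, with 108, 80.7, 83.5, 115, 77.8 and 90.0 CPM in silica blood and 53.4, 67.2, 56.6, 80.4, 93.5 and 77.5 CPM in air blood. Its log2 fold change was 0.37 ± 0.16, with an unadjusted p of 0.0343 and an adjusted p of 1. At 6 months Plin2 averaged 64.2 CPM in silica blood and 50.6 CPM in air blood (log2 fold change 0.34 ± 0.23, adjusted p = 0.658). Itgax averaged 199 and 189 CPM in silica and air blood at 1 day (0.08 ± 0.13, adjusted p = 1) and 187 and 189 CPM at 6 months (-0.02 ± 0.16, 0.974). Air library 25 of 6 months stood apart from the other blood libraries, with 2031 CPM of NK and LGL markers against 214 to 784 CPM. It was the highest of all blood libraries in Itgax (255 CPM) and the lowest in Plin2 (21.8 CPM). Its TMM factor was also the highest (1.93). Without TMM its Plin2 was 42.0 CPM, above the 28.8 CPM of silica 31, so its lowest place in Plin2 depends on the scaling. With air 25 left out, the 6-month log2 fold changes were 0.16 for Plin2, 0.27 for Cd36 and 0.064 for Itgax, each with an adjusted p of 0.95 or above.

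Cd36 varied within the blood groups. At 1 day silica 11 had 13.4 CPM, against 70.9 to 90.5 CPM in the other 5 silica libraries and 57.6 to 104 CPM in air libraries. At 6 months silica 31 had 190 CPM, against 63.1 to 96.6 CPM in the other silica libraries and 28.3 to 110 CPM in air libraries. Its TMM factor was the lowest of all (0.521). Without TMM it had 98.9 CPM, against 67.4 to 90.7 CPM in the other silica libraries, so most of its distance came with the scaling. The marker sums that follow are scaled by TMM as well. The 12 erythroid markers of silica 31 summed to 131514 CPM, the highest of all blood libraries. The platelet markers of silica 11 summed to 3908 CPM, the highest likewise, and those of silica 16 of 1 day to 3711 CPM. With TMM factors of 0.697 for silica 11 and 1.065 for silica 16, the highest place of silica 11 depends on the scaling. The part of these cells was not tested. The log2 fold changes were -0.11 ± 0.34 at 1 day (adjusted p = 1) and 0.47 ± 0.32 at 6 months (0.658). Pparg, Fabp5 and Lpl averaged 0.701 to 3.08 CPM in the blood groups, with adjusted p of 0.658 or above.

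**Figure D5:**
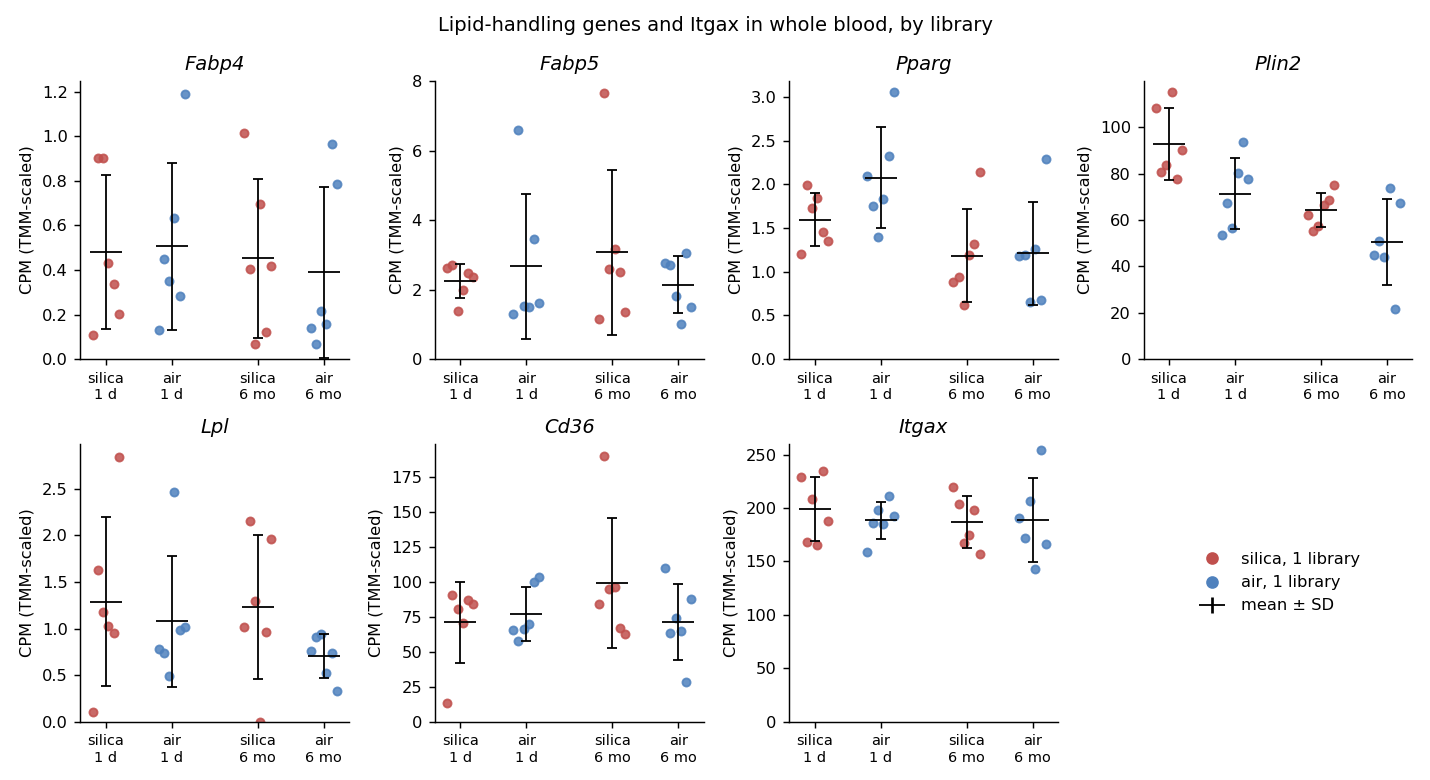
CPM of each gene in whole blood, 1 point per library, silica left of air at each time, with the mean ± SD of 6 libraries. The groups overlap in all 7 genes, and Cd36 shows 1 silica library at 13.4 CPM at 1 day and 1 at 190 CPM at 6 months. The library at 190 CPM has 98.9 CPM without TMM.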

How the data were processed

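RNA was measured by sequencing in 22 lung and 24 blood samples. Per the labels' protocols, blood RNA was depleted of globin messengers and libraries were stranded and made from messenger RNA. Per the submitters' processing notes, Salmon 1.10.1 and STAR 2.6.1d were used, along with Trim Galore 0.6.7, cutadapt 3.4 and bcl2fastq 2.19, on the genome build Rnor_6.0; their roles are not given there. The authors deposited Salmon's estimated counts per gene in 4 tables, not scaled to depth or length, so levels are compared within a gene and never between genes. Reads shared between transcripts are split by probability. Counts were not whole (tolerance 0.01) in 100% of samples for Cd36, 95.7% for Itgax and 0% for the other 5 genes. The levels of Cd36 and Itgax are less certain for this reason, but these shares do not say how many reads were split.

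Estimated counts were rounded. Library pairs within a lung group with under 10% of genes at p under 0.05 (chi-square test, genes with a pair mean of at least 20 counts and whole counts in both; over all genes 9.58% to 11.5%, against at least 22.8% in other pairs) were averaged and counted once. This rule was set after seeing the data. No pair in blood met it (27.1% or more). Blood libraries with the numbers of merged lung pairs differed in 51.1% (02 and 07), 49.8% (04 and 08), 86.5% (20 and 25) and 82.6% (30 and 31) of genes. Why the lung pairs are so alike was not tested. The labels do not say that samples come from separate animals, so a p-value reflects the spread among samples, which may be technical. Silica was tested against air per tissue and time with edgeR 4.0.16 in R 4.3.3 (filterByExpr with counts of at least 10 and a total of 15, TMM factors of 0.950 to 1.03 in lung and 0.521 to 1.93 in blood, robust quasi-likelihood F test). CPM are scaled by TMM factors taken within each tissue and time. Contrasts between times used 1 fit per tissue. A value of 3 counts, the floor for a count of 0, is 0.123 to 0.282 CPM without TMM, a limit for counting error only. Fits were also run on simulated data in which every gene had the same dispersion. Spread differs between genes and groups here, so that run does not check the calls.

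The 7 genes, the lists and the rules were chosen with earlier results of these data known. Named genes are the 7, per list and comparison the 3 largest rises and 3 largest falls among called genes that reach a mean of 1 CPM in either group, and the 2 genes most like each of the 7 (log2 CPM, prior count 2, mean CPM of 1 or more). Some genes that this rule takes are not reported here. Abca1 at 6 months was named after its value was seen. Angptl8 and Ccr2 were not found under their names. Alternatives were other scalings, no filter, DESeq2 1.42.0, every library on its own, all groups of a tissue in 1 fit, and each library left out. Promoter sequences are from RefSeq, build GRCr8, and no coordinates of the counts' build were used.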

Additional observations from a re-analysis of the deposited data

Results flagged for a closer look

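The silica effect on 6 of the 7 genes differed between 1 day and 6 months in lung, by an interaction test with edgeR. The difference of log2 fold changes, 6 months minus 1 day, was 3.06 for Fabp4, 1.07 for Fabp5, 1.09 for Pparg, 0.83 for Plin2, 0.47 for Cd36 and -2.89 for Itgax. Of all genes tested, 12.2% had a larger and 14.6% a more negative silica effect at 6 months. Between the times, Itgax and Cd36 passed in air lungs only, Fabp4 and Pparg in silica lungs only, Plin2 in both and Fabp5 in neither. The 6-month air lungs were 2 libraries that stood apart, and all lung libraries shared 1 estimate of the spread. The calls of Fabp5 and Cd36 were each lost without any 1 of 13 of the 17 lung libraries.

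In 8 of 49 sets of gene and group with 4 to 6 libraries, 1 library lay apart from its group by Dixon's criterion; chance flags about 1 in 20 groups. In lung, Itgax was 195 CPM in silica 30-31 of 6 months, against 84.2 to 93.7 CPM in the other silica libraries. At 1 day Cd36 was 620 CPM in silica 15 (others 493.4 to 538.4 CPM), and Plin2 was 241 CPM in silica 13 (others 200 to 212 CPM). In blood of 1 day, Cd36 was 13.4 CPM in silica 11 (others 70.9 to 90.5 CPM) and Lpl was 2.46 CPM in air 07 (others 0.489 to 1.02 CPM). In blood of 6 months, silica 31 had 190 CPM of Cd36 (others 63.1 to 96.6 CPM) and 7.66 CPM of Fabp5 (others 1.15 to 3.18 CPM), and air 27 had 2.29 CPM of Pparg (others 0.653 to 1.26 CPM). These values are scaled by TMM. Without TMM, silica 31 had 98.9 CPM of Cd36 (others 67.4 to 90.7 CPM) and 3.98 CPM of Fabp5 (others 1.14 to 2.72 CPM).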

How the results depend on the processing

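No paired analysis was possible because silica and air samples of a tissue and time share no animal number in the labels. Over 62 results and 1062 alternatives, 925 kept their result. For a single gene this means the same direction and side of the threshold. For a count of genes past the threshold it means a similar count. Where a value changed below, the cause was not tested. Fabp5 at 1 day in lung kept its call except in the fit of all 4 lung groups. In that fit 594 genes passed at 1 day in place of 1836, and the log2 fold changes were 0.62 for Fabp5, -0.35 for Pparg, 0.20 for Lpl, 0.23 for Cd36 and 0.78 for Itgax, none past the threshold, while 6501 genes passed at 6 months in place of 3190. Counting every library on its own gave 6396 genes at 6 months. Itgax at 1 day did not pass with library size only (0.76) or with no filter (0.77). Pparg at 6 months passed with DESeq2 (0.78), with every library on its own (0.68) and with all 4 groups (0.74). Against 1-day air lungs the 6-month silica lungs gave 0.45 for Pparg, 0.24 for Cd36 and 1.13 for Itgax, the last with its sign turned.

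With each library left out in turn, the count of genes ran from 1185 (without air 06) to 2240 at 1 day in lung, and at 6 months from 57 (without air 19-24) to 4169, with 1063 without air 20-25 and 1756 and 1749 without silica 34 or 35. At 1 day the log2 fold changes ran from -0.42 to -0.30 for Pparg, 0.15 to 0.23 for Lpl, 0.18 to 0.25 for Cd36 and 0.66 to 0.98 for Itgax. At 6 months they ran from 2.69 to 3.29 for Fabp4, 1.46 to 1.90 for Fabp5, 0.68 to 0.91 for Pparg, 0.92 to 1.09 for Plin2, -0.0045 to 0.20 for Lpl, 0.54 to 0.99 for Cd36 and -2.38 to -1.79 for Itgax. With 1 air library left at 6 months, it is assumed to vary like the silica libraries. In blood at 1 day they ran from -0.40 to 0.26 for Fabp5, -0.091 to 0.71 for Lpl and -0.19 to 0.11 for Cd36, and at 6 months from -0.28 to 0.28 for Pparg and -0.089 to 0.064 for Itgax, with 0 to 2 genes passing. DESeq2 called 7 genes in blood at 6 months.

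For the contrasts between times in lung, the count with a library left out ran from 1641 (without 6-month air 19-24) to 5569 for the interaction, from 3644 (without the same library) to 6810 for air lungs, and from 766 to 3000 for silica lungs, where it was 766 to 970 without 1-day silica 11, 13, 14 or 15, 906 without 6-month silica 35, and 2909 and 3000 without 6-month silica 30-31 or 32, in place of 1598. Cd36 in silica lungs, late against early, ran from -0.044 to 0.093, and was -0.025 with library size only and -0.042 with every library on its own. In the blood interaction Fabp4 ran from -0.31 to 0.72, Plin2 from -0.18 to 0.11 and Itgax from -0.16 to 0.010, none past the threshold. With library size only, which moved the median of all genes by -0.33 in blood at 6 months and by -0.24 in the blood interaction, Itgax in blood at 1 day was -0.017, Fabp5 in blood at 6 months -0.11 and Fabp4 in the blood interaction -0.28, each with its sign turned.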
